A study of Mus musculus with 2 samples.

Results

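The regions described are the 663 peaks on mouse chromosome 15 in a deposited list of 7680 peaks, 8.63% of the list, from chromatin immunoprecipitation followed by sequencing (ChIP-seq) for Nr4a2 in BV2 cells. Every row of the list on chromosome 15 was taken. The chromosome was chosen by its number of peaks per Mb in this same list, the highest of any, so its density is given as a description and supports nothing. BV2 is an immortalised mouse microglial line. There was 1 library from DNA precipitated with an anti-Nr4a2 antibody and 1 from input DNA, both from BV2 cells, and the peaks are those of the first over the second. The labels name no treatment, genotype change or time, while the names in the file header carry the tag H2O2 for both libraries. With 1 library of each kind there is no replicate error, so no difference below was tested, and intervals cover counting error only.

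Nr4a2 (Nurr1) is an orphan nuclear receptor of the NR4A family, which also holds Nr4a1 and Nr4a3. It binds DNA as a monomer at a short word made of a nuclear receptor half-site preceded by A bases, and as a dimer at paired words. It is known for its part in the upkeep of dopamine neurons of the midbrain and in the damping of inflammatory genes in glia. Mouse chromosome 15 carries Nr4a1 itself, a run of type II cadherin genes in a gene-poor stretch near its start, the Ly6 family, and the Hoxc and type II keratin clusters towards its end.

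Sequence was at hand for promoters, the 250 bases before an annotated gene start in RefSeq on GRCm38.p6 (mm10), and a peak covered more than 100 of those bases at 4 genes. They are shown because a peak covered more of them than of any other promoter at hand. Capitals mark the bases inside the peak, each sequence is on the strand of its gene, and the gene starts directly after the last base. Rbx1 encodes the RING subunit of cullin ubiquitin ligases, at chr15:81466066-81466315 (+ strand), and Adsl encodes adenylosuccinate lyase of purine synthesis, at chr15:80948240-80948489 (+ strand). Myh9 encodes a non-muscle myosin heavy chain, at chr15:77842176-77842425 (- strand), and Itga5 encodes the alpha subunit of a fibronectin receptor, at chr15:103366792-103367041 (- strand).
Rbx1: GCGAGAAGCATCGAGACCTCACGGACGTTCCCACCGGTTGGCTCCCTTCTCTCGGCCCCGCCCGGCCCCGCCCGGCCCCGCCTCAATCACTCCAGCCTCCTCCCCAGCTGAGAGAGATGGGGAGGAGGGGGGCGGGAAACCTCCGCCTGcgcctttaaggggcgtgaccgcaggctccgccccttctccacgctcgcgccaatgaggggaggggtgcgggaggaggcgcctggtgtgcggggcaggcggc
Adsl: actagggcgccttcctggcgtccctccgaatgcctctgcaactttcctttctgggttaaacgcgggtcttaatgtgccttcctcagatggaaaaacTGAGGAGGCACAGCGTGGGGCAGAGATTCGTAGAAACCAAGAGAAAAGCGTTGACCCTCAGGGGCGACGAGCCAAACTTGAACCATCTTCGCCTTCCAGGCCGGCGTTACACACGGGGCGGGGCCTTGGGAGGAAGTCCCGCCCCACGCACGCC
Myh9: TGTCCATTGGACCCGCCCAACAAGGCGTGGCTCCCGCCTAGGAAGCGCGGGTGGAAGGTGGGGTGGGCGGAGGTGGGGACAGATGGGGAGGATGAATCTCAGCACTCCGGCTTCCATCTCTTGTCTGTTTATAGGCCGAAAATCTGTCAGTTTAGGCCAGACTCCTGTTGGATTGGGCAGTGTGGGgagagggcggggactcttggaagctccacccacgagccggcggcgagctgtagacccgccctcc
Itga5: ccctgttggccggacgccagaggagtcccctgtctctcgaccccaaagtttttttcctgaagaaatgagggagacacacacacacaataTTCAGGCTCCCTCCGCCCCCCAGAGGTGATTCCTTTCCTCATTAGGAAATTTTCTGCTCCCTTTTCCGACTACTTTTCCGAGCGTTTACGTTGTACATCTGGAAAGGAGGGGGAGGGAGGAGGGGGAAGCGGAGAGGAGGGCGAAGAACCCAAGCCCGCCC

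The summit lay 124 bp before the start of Rbx1, 96 bp before that of Adsl, 139 bp before that of Myh9 and 52 bp after that of Itga5. The pileup, the count of ChIP tags that cover a summit once extended, was 10 at Rbx1, 10 at Adsl, 9 at Myh9 and 12 at Itga5. Fold enrichments, the ratio of pileup plus 1 to background plus 1, were 3.66 at Rbx1, 3.36 at Adsl, 3.43 at Myh9 and 3.41 at Itga5. A peak also overlapped the promoter of Phf21b, a PHD finger gene, by 23 bases and that of the long non-coding RNA gene Gm46527 by 65 bases. The monomer word of NR4A factors, AAAGGTCA, was in none of these 6 promoters on either strand, nor was the half-site AGGTCA that it contains. The longer word was in 0.855% of the 936 promoters of chromosome 15 and in 1.34% of all 32851, and the half-site in 16.6% and 14%. The search covered the 250 bases and not the rest of each peak. The summits at Itga5, Phf21b and Gm46527 lay outside those bases. At such shares 6 promoters are also too few, so nothing about binding is read from the absence. GGGCGG, a word of GC-rich promoters, was in 5 of the 6, against 34.4% of chromosome 15 promoters. Their GC content ran from 55.6% at Itga5 to 72.4% at Rbx1, while the median over chromosome 15 promoters was 53.6%.

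Peaks lay at 6.57 per Mb of chromosome 15 (95% Poisson interval 6.08 to 7.09) over the 100.8 Mb between its first and last annotated gene. The next chromosomes, on either side of the choice, were 12 with 5.91 per Mb and 19 with 5.73 per Mb, and the median autosome had 2.92. Gene content did not follow this order. Chromosome 15 had 7.68 coding genes per Mb, 11th of the autosomes and X, and 0.857 peaks per coding gene against 1.02 on chromosome 12 and 0.474 on chromosome 19.

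Peaks were spread over the whole length of the chromosome. The 19 full bins of 5 Mb held between 14 and 49 peaks, with a median of 33, and none was close to empty. Elsewhere the median of 495 such bins was 10 peaks. Of those bins, 290 (58.6%) held fewer than the emptiest bin of chromosome 15, and 36 held none. Bins as full as the chromosome 15 median made up 8.89% of those elsewhere, and 6 of them exceeded 49. In bins of 1 Mb the variance to mean ratio was 1.39, against a median of 2.12 over autosomes and values of 2.61 on chromosome 12 and 1.75 on chromosome 19. An evenly random scatter gives a ratio of 1. Bins without a peak made up 3.03% of full 1 Mb bins, against a median of 20.8% over autosomes. The other dense chromosomes were as full, with 4.31% on chromosome 12 and 0% on chromosome 19, whose lowest 5 Mb bin held 17 peaks. That bins were full and few were empty is tied to the density that chose the chromosome. Nothing is read from these contrasts with sparser chromosomes.

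**Figure D1:**
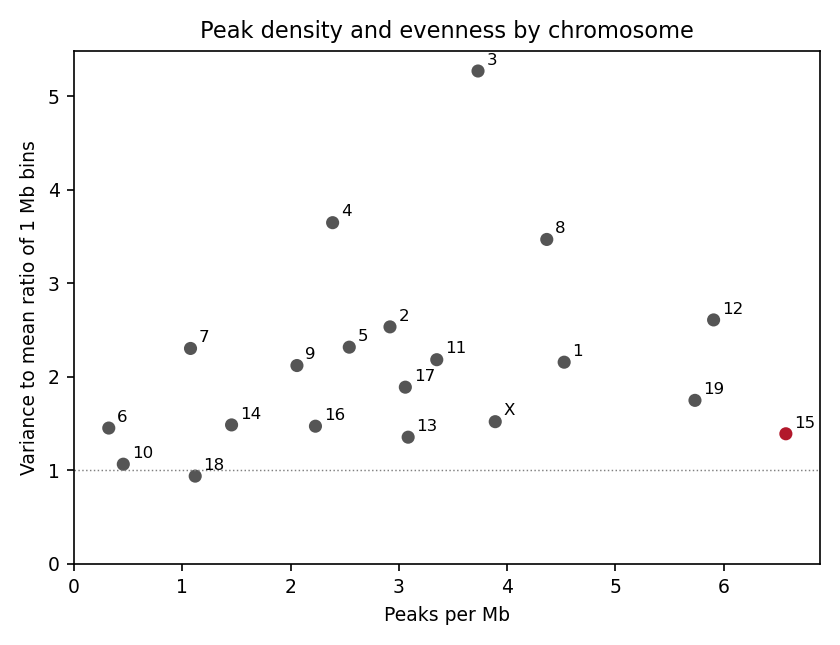
Peaks per Mb (x axis) and the variance to mean ratio of peak counts in full 1 Mb bins (y axis) for each autosome and X, with chromosome 15 in red and a dotted line at 1. Chromosome 15 lies farthest to the right at 6.57 peaks per Mb with a ratio of 1.39, below chromosome 12 at 2.61.

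Few changes along the chromosome were abrupt. The largest ratio between neighbouring full 5 Mb bins was 2.31, from 16 peaks at 20 to 25 Mb to 37 peaks at 25 to 30 Mb (95% interval 1.26 to 4.45). Next came 2.18, from 17 peaks at 45 to 50 Mb to 37 at 50 to 55 Mb, and 0.467, from 30 peaks at 10 to 15 Mb to 14 at 15 to 20 Mb. The same measure reached 3 on chromosome 12 and 1.94 on chromosome 19, and its median over autosomes was 5. It can run high where bins hold few peaks, as on chromosome 6 with 47 peaks and a ratio of 5. Pairs with an empty bin were left out. The contrast with the median is thus tied to the density that chose the chromosome. The intervals are for pairs picked because they were large.

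A Poisson segmentation of the 1 Mb bins divided the chromosome once, at 24 Mb. Before it lay 88 peaks at 4.20 per Mb (3.37 to 5.18), and after it 575 peaks at 7.20 per Mb (6.62 to 7.81), a ratio of 1.71 (1.37 to 2.17). The nearest end of a coding gene to the step was that of Cdh18, a type II cadherin gene, 523 kb before it. Gene density rose close to the step. The 5 Mb bins from 15 and 20 Mb held 2 and 4 coding genes. Those from 25 and 30 Mb held 12 and 24. Averaged over the whole stretch on either side, up to 73 Mb, gene density hardly changed. Coding genes lay at 3.15 per Mb before 24 Mb, at 3.33 per Mb from 24 to 73 Mb and at 17.6 per Mb beyond, a boundary chosen after the bins were seen, while peaks lay at 4.20, 7.04 (6.32 to 7.82) and 7.44 (6.51 to 8.47) per Mb. The median peak was alike on both sides, with a fold of 3.59 and 10 tags. Peaks with a q of at most 0.05 were 47.7% (37.0 to 58.6) before and 51.3% (47.1 to 55.5) after. For peaks with a q of at most 0.01 the step fell at 25 Mb, with 6 before it and 93 after it, a density ratio of 4.31 (1.91 to 12.05). That cut, too, was placed by the counts it divides.

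**Figure D2:**
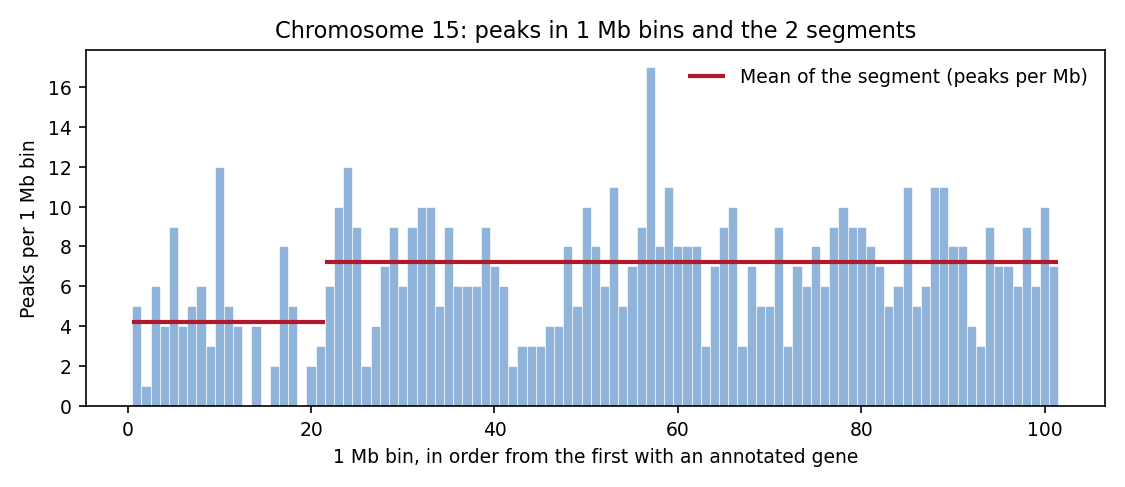
Number of peaks (y axis) in each 1 Mb bin of chromosome 15, in order along the chromosome (x axis), with the mean of each segment as a red line. The segments have means of 4.20 and 7.20 peaks per Mb, and the fullest bin holds 17 peaks.

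The emptiest stretch was the cadherin desert before the step. The 5 Mb bins from 15 and 20 Mb held 14 and 16 peaks and only 2 and 4 coding genes. The 1 Mb bins from 15, 17 and 21 Mb were the only ones with no peak. The longest gap between neighbouring summits was 1929 kb, from a peak of 4.31-fold inside Cdh12 to a peak of 3.20-fold inside Cdh18. Gaps of 1621 kb, between peaks nearest to Cdh9 and Cdh10, and of 1384 kb, before Cdh9, followed. The peaks on their flanks were all under the median fold of the chromosome, at 2.87-fold and 3.50-fold for the first and 3.23-fold and 3.20-fold for the second. No whole coding gene lay within any of these 3 gaps. The strongest peak of the chromosome by fold lay in this same desert, as given below.

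The fullest 5 Mb bin, from 55 to 60 Mb, held 49 peaks and 32 coding genes. The bins from 60 to 65 Mb and from 80 to 85 Mb followed with 43 peaks each, over 11 and 91 coding genes, and the bin from 90 to 95 Mb held 42. The fullest 1 Mb bin, from 59 to 60 Mb, held 17 peaks, against a median of 6. It was singled out after its values were seen. In it, 4 summits belonged to Sqle, which encodes squalene epoxidase of sterol synthesis. They lay 61 bp and 897 bp from an end of the gene and at 2 places inside it, with folds of 4.58, 4.14, 2.96 and 3.42. Another 5 were nearest to Trib1, which encodes a pseudokinase, with summits 0.652 to 90.8 kb from its end and folds of 2.96 to 4.27. A second low bin, from 45 to 50 Mb, held 17 peaks and 2 coding genes and lay over Csmd3, a gene of 1212 kb with 4 peaks inside.

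The rank correlation of peaks with coding genes over the 19 full bins was 0.341, and all bins share the same libraries. It was 0.452 with all gene records other than pseudogenes and 0.575 for peaks with a q of at most 0.05. The bin richest in genes, from 75 to 80 Mb, had 157 coding genes and 36 peaks (0.229 per gene). The bin from 60 to 65 Mb had 43 peaks for 11 genes (3.91 per gene). From 45 to 50 Mb the figure was 8.50 peaks per gene.

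**Figure D3:**
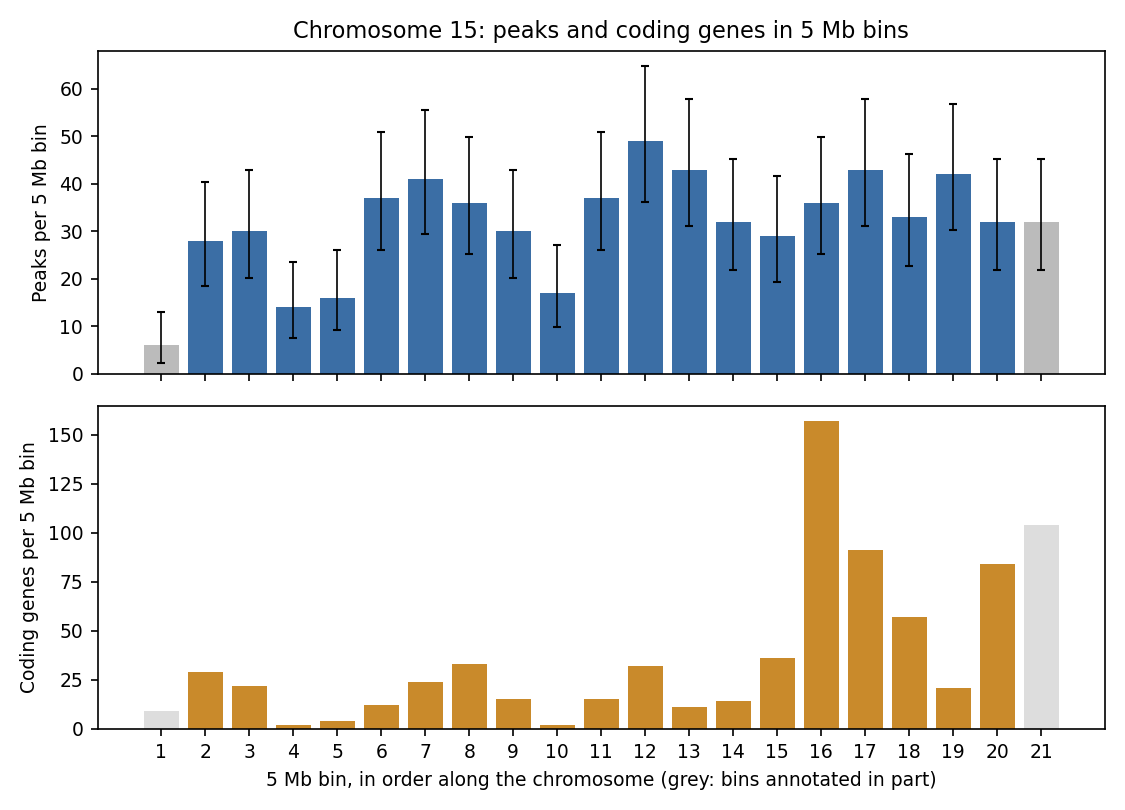
Peaks (upper panel, bars with exact Poisson 95% intervals) and coding genes (lower panel) in 5 Mb bins in order along chromosome 15. Bin 4 (14 peaks), bin 5 (16) and bin 10 (17) are the low full bins, and bin 16 has 157 coding genes but 36 peaks.

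The background of the peaks also varied with gene content. The peak caller compares each pileup with a background taken from the input near the peak or, where that is lower, with a genome-wide value of 1.79 tags. On chromosome 15 the background was above the genome-wide value in 405 of 663 peaks (61.1%, 95% interval 57.3 to 64.8). The share was 49.5% (48.4 to 50.7) on the other 20 placed chromosomes, 63.2% (59.5 to 66.8) on chromosome 12 and 53.6% (48.1 to 59.0) on chromosome 19. The first 2 of these intervals do not overlap, but the median background was 1.81 tags on chromosome 15 and 1.79 elsewhere. A background of at least 3 tags went the other way. It was found in 1.06% (0.426 to 2.16) of peaks on chromosome 15 and 2.69% (2.32 to 3.10) elsewhere. Along chromosome 15 the share above the genome-wide value ran from 30.0% at 40 to 45 Mb to 95.3% at 80 to 85 Mb. Its rank correlation with coding genes was 0.623 over the 19 full bins. The share was 42.0% before the step at 24 Mb and 64.0% after it. The part of the input in the density of peaks was not tested.

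**Figure D4:**
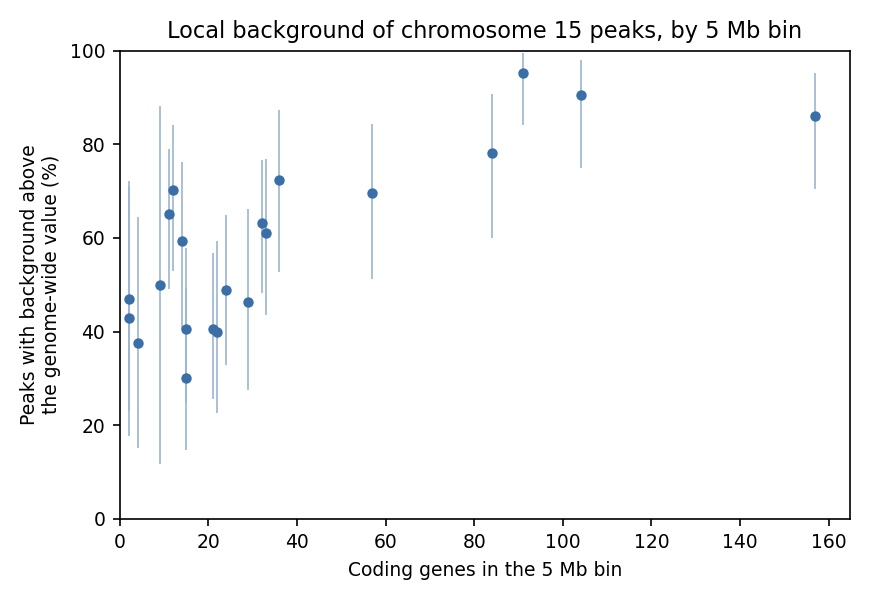
Share of peaks whose background was above the genome-wide value (y axis, %, bars are exact binomial 95% intervals) against the number of coding genes (x axis) in each 5 Mb bin of chromosome 15, the partly annotated bins at either end included. Shares run from 30.0% to 95.3%, and the lowest among the bins with more than 80 coding genes is 78.1%.

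In height the peaks were ordinary for the list. The lowest pileup was 7 tags, the median 10 and the highest 173. Most fell in a narrow range, with 268 peaks (40.4%) at 7 to 9 tags and 367 (55.4%) at 10 to 13, and 28 (4.22%, 2.82 to 6.05) at 14 or more, against 5.28% elsewhere. Fold enrichment ran from 1.54 to 6.76 with a median of 3.59, the same median as elsewhere. The median width was 197 bp (188 to 204) against 189 bp (187 to 191).

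By the deposited q-values, 337 of the 663 peaks (50.8%, 47.0 to 54.7) had a q of at most 0.05, against 50.6% of the whole list. A q of at most 0.01 was reached by 99 (14.9%, whole list 15.4%) and of at most 0.001 by 15 (2.26%, whole list 2.45%). In 23 peaks (3.47%, whole list 3.79%) the fold was at least 5. All 4 shares are near those of the whole list. Among the placed chromosomes, 15 stayed first in density at a q of at most 0.05, with 3.34 per Mb against 3.17 on chromosome 12. At a q of at most 0.01 it came second, at 0.982 against 1.0 per Mb on chromosome 12. Its own interval there was 0.798 to 1.20.

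The tallest pileup stood on a high background. The peak at 75086666 to 75086933, between genes of the Ly6 family and 21.4 kb from Ly6c2, had 173 tags over a background of 112.1, a fold of 1.54, the lowest on the chromosome. Every other peak had 18 tags or fewer.

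The strongest peaks by fold lay at all distances from genes, from inside a gene to 527 kb away. The first, at 20422795 to 20423019, had 18 tags, a fold of 6.76 and a −log10 q of 6.27, and its summit was 26.0 kb from Cdh12. The second, at 86989731 to 86989918, had 17 tags and 6.46-fold and lay 491 kb from Tbc1d22a, a gene of the Rab GTPase-activating family. The third, at 27098054 to 27098273, had 16 tags and 5.99-fold, 203 kb from Fbxl7, an F-box gene. The fourth, at 99317100 to 99317309, was the only one of the top 10 at a gene end, with 17 tags and 5.61-fold.

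The other 6 of the top 10 had 14 tags each and folds of 5.34 or 5.38. A peak in Syt10, a synaptotagmin gene, and one in Col14a1, a collagen gene, lay inside coding genes. A further peak was 1.28 kb outside Col14a1, and one was 14.2 kb from Angpt1, which encodes a ligand of the endothelial receptor Tie2. The last 2 were 205 kb from Adamts20, a metalloprotease gene, and 527 kb from Cdh10. In all, 7 of these 10 summits were in or at no coding gene, against 368 of all 663 (55.5%).

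Peaks at the ends of genes, within 1000 bp of either end, numbered 43 (6.49%, 4.73 to 8.64). The windows covered 4.94% of the chromosome, a ratio of 1.31. On the other placed chromosomes the share was 8.31% (7.68 to 8.99) over windows covering 4.96%, a ratio of 1.68, and the intervals of the shares overlap. For coding genes the share was 5.28% of peaks over 2.83% of the chromosome, a ratio of 1.86, against 2.03 elsewhere. Chromosomes 12 and 19 had ratios of 2.1 and 1.95 for coding genes.

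In all, 39 of 774 coding genes (5.04%) had a peak at an end, against 2.27% of those on the other placed chromosomes. Such a count rises with peaks per Mb, which chose the chromosome, so nothing is read from it. The 35 peaks concerned had a median fold of 3.59 and a median pileup of 10 tags, as did the 319 peaks in or at no gene record. A background above the genome-wide value was found in 82.9% (66.4 to 93.4) of the former and 53.6% (48.0 to 59.2) of the latter.

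The strongest peak at a gene end was that of 5.61-fold, 37 bp from Fmnl3, which encodes a formin that acts on actin; Prpf40b, a splicing factor gene, also had an end within 1000 bp. It was followed by a peak of 4.81-fold and 13 tags 84 bp from Smc1b, a meiotic cohesin gene, with its summit inside the neighbour Fam118a. The 2 peaks outside Sqle, given above, were also among the 10. Apol9a, of the apolipoprotein L family, had a peak of 4.27-fold at 819 bp. Rad1, of the DNA damage checkpoint clamp, shared a peak of 3.95-fold with its neighbour Brix1, a ribosome assembly gene. Wdyhv1, an N-terminal glutamine amidase gene, had 3.92-fold at 164 bp.

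The last of these 10 were at Nptxr, a neuronal pentraxin receptor gene (3.86-fold), Ly6i (3.84-fold) and Cbx6, a Polycomb gene (3.82-fold). That at Cbx6 also lay in Npcd. The peak at Nptxr lay inside Npcd, too, so these overlapping records cannot be told apart.

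Where gene strand was at hand, for 422 of the 774 coding genes, 15 genes had an annotated start within 1000 bp of a summit. The peaks with the highest fold were at Zfr, an RNA-binding zinc finger gene, 920 bp after the start with 4.63-fold, and at Apol9a before the start. Summits lay on both sides, from 865 bp before a start of Apol9a to 920 bp after that of Zfr.

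Inside genes lay 322 summits (48.6%, 44.7 to 52.4), and genes covered 47.6% of the chromosome, a ratio of 1.02. Elsewhere 53.1% (51.9 to 54.2) of summits were inside genes that covered 45.7%, a ratio of 1.16. On chromosome 12 the ratio was 1.23 and on chromosome 19 it was 1.07. The median summit of chromosome 15 was 50.3 kb from the nearest end of a coding gene, 49 summits (7.39%) were more than 500 kb away, and the farthest was 1752 kb away, before Cdh9.

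At least 1 peak was inside 164 of the 774 coding genes (21.2%, against 11.3% on the other placed chromosomes, again with nothing read from it). The count went with gene length. Of 101 genes of 100 kb or longer, 72 (71.3%) had a peak inside, and of 410 genes under 20 kb, 25 (6.10%) had. Per Mb of gene, the long genes held 6.54 peaks and the short ones 7.99, both near the density of the chromosome.

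The gene with most peaks was Cntn1, which encodes contactin 1, a neuronal adhesion protein, with 7 in 291 kb, or 24.1 per Mb. Their folds were 4.98, 4.31, 3.92, 3.23, 2.87, 2.87 and 2.69, and 3 of the 7 had a q of at most 0.05. Vps13b, a lipid transfer protein gene of 560.1 kb, and Ctnnd2, which encodes delta-catenin over 857 kb, had 6 each. In Ctnnd2 folds ran from 3.47 to 5.02 and in Vps13b from 3.59 to 4.67. Tafa5, which encodes a secreted brain protein, had 5 in 215 kb (23.2 per Mb), with folds of 4.67, 4.63, 3.92, 3.92 and 3.59. Slc2a13, an inositol transporter gene, Pdzd2, Ncald, a neuronal calcium sensor gene, and Cdh18 also had 5 each. In Cdh18 these were spread over 929 kb, or 5.38 per Mb. Zfat, a zinc finger gene, and Ext1, a heparan sulfate polymerase gene, had 4 each; all 4 in Zfat had a q of at most 0.05.

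**Figure D5:**
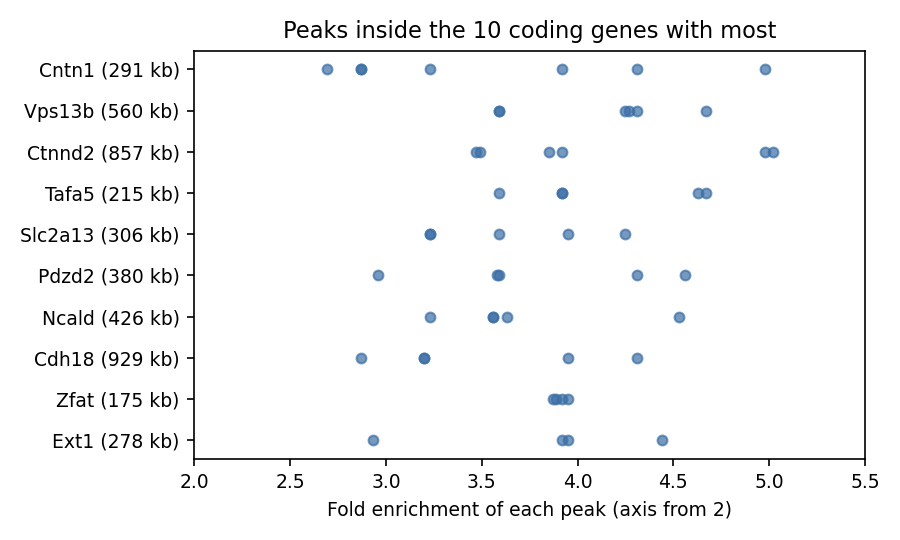
Fold enrichment (x axis, starting at 2) of every peak inside the 10 coding genes of chromosome 15 with most peaks, each gene with its length in kb; points that coincide look darker. Cntn1 has 7 peaks from 2.69-fold to 4.98-fold, and the highest point is at 5.02-fold in Ctnnd2.

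The median distance between neighbouring summits was 98.1 kb, and on chromosomes 12 and 19 the medians were 99.4 and 107.7 kb. Distances of 10 kb or less made up 8.46% on chromosome 15, 8.26% on chromosome 12 and 8.11% on chromosome 19. The closest pair was 500 bp apart, 56.1 kb from Marchf11, a ubiquitin ligase gene, with folds of 2.96 and 2.93. A pair 507 bp apart lay inside Cbx7, a Polycomb gene, with folds of 2.85 and 4.67.

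Genes of the chromosome were also read by family. Of 160 genes in 16 lists, 38 (23.75%) had a peak inside or within 1000 bp, against 23.8% of all coding genes of the chromosome and 12.2% of those on the other placed chromosomes. The lists as a whole thus did not stand apart. Long genes weigh on these counts, so the median length of each list is given with it where it bears on the count.

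None of the 4 nuclear receptor genes had a peak inside or within 1000 bp. The nearest peak was 34.1 kb from Nr4a1, 17.8 kb from Rarg, which encodes a retinoic acid receptor, 25.2 kb from Vdr, the vitamin D receptor gene, and 6.91 kb from Ppara, a receptor gene of fatty acid metabolism. The folds of these peaks were 2.65, 3.41, 4.11 and 3.10. The same held for the 6 stress response factor genes. There the nearest peak was 47.1 kb from Atf4, the effector of the integrated stress response, 106.9 kb from Maff and 36.1 kb from Hsf1, the heat shock regulator. Complement (3 genes), Wnt ligand (3) and Cyp2d (8) genes had none either.

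Among microglial and immune genes, of 24.7 kb in the median, 6 of 17 had a peak, against 23.8% of all coding genes of the chromosome. In 4 of the 6 the peak had a q of at most 0.05, as did 50.8% of all peaks of the chromosome. Slc1a3, among the 6, is also counted with the genes of other glia below. The list does not hold every such gene of the chromosome. Outside it, Gpr84, Bin2, Nckap1l, Nfam1 and Parvg had no peak inside or within 1000 bp, while Ly6g, counted with its family below, had. The share thus depends on the choice of members, and nothing is read from it. Irak4, a kinase of Toll-like receptor signalling, had a peak of 12 tags and 4.67-fold at 94566403 to 94566566, inside the gene. Grap2, an adaptor gene of lymphocytes, had 4.49-fold, Dab2, an endocytic adaptor gene, 3.96-fold, and Lrrk2, a kinase gene linked to Parkinson disease, 3.72-fold. The peaks in Slc1a3, a glutamate transporter gene (3.23-fold), and at the end of Cyth4 (2.98-fold) had a −log10 q of 0.76 and missed that limit. Tspo, the gene of a mitochondrial protein used as a marker of activated microglia, was 97.0 kb from its nearest peak. Csf2rb, which encodes the shared beta chain of cytokine receptors, was 17.0 kb away. Of the 8 cytokine and hormone receptor genes, Osmr alone had a peak, of 8 tags and 3.17-fold.

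Chromatin regulators had a peak in 9 of 13, with a median length of 42.4 kb, against 23.8% of all coding genes of the chromosome. The list was chosen with earlier results of these data known and does not hold every such gene of the chromosome. Outside it, Cbx5, Arid2, L3mbtl2, Chrac1 and Kansl2 had no peak inside or within 1000 bp, while Nipbl and Yaf2 had. The share thus depends on the choice of members, and nothing is read from it. Cbx7 had 3 peaks, up to 4.67-fold, and Phf20l1 2, up to 4.58-fold. Hdac7, a histone deacetylase gene, had 2, up to 4.25-fold, and Cbx6 was named above. The peak in Ep300, a histone acetyltransferase gene, was 3.43-fold with a −log10 q of 1.08. In 5 of the 9 genes a peak had a q of at most 0.05, as did 50.8% of all peaks of the chromosome. Type II cadherins had a peak in 4 of 5, with a median length of 197 kb: Cdh6, Cdh12 and Cdh18 up to 4.31-fold each and Cdh9 at 3.20-fold. Synaptic and neuronal genes had 7 of 15 at a median of 111.1 kb, with the highest folds in Ctnnd2 (5.02), Csmd3 (4.67), Adcy8 (4.67) and Kcnq3 (4.31). Beside these 2 lists of long genes, 71.3% of all genes of 100 kb or longer had a peak inside.

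The clustered families hold short genes, with median lengths of 8.27 kb for keratins, 5.10 kb for Hoxc, 3.87 kb for Ly6 and 11.4 kb for apolipoprotein L. Of all genes under 20 kb on the chromosome, 36 of 410 (8.78%) had a peak inside or within 1000 bp. The keratins listed from the type II cluster had 2 of 25, Krt71 at 3.92-fold and Krt78 at 3.36-fold. These 25 include Krt18, a type I keratin gene beside the cluster, and leave out Krt88, which had no peak. The Hoxc cluster had 1 of 9, 517 bp from an end of Hoxc8 at 3.80-fold. The 15 listed genes of the Ly6 family had 2, Ly6i and Ly6g, at 3.84-fold and 3.83-fold. Not all of that family was listed, and Ly6m, Ly6l, Ly6a2, Ly6g2 and Ly6g6g, left out, had no peak inside or within 1000 bp. The apolipoprotein L family had 2 of 12, Apol9a and Apol7c, both at an end. The Ly6 and apolipoprotein L families hold close copies, so the placing of reads there is uncertain. The list of translation genes, which also holds Ywhaz, Rangap1 and Snu13 from outside translation proper, had 2 of 13, Mrpl13 (4.31-fold) and Eif4b (2.96-fold). The list of genes of other glia had 3 of 7, Pdgfb (4.46-fold), Enpp2 (3.59-fold) and Slc1a3. Pdgfb and Mal2, both counted in it, are not specific to glia. For these last 2 lists the share to set beside is the 23.8% of all coding genes of the chromosome.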

How the data were processed

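The data were 1 anti-Nr4a2 ChIP-seq library and 1 input library of BV2 cells, with 1 deposited peak list. The submitters' processing notes list Bowtie2, ChIPseeker, MACS2 2.2.6 and the build mm10. Per the file headers, MACS 2.1.4 called peaks with a p cutoff of 0.001, a fragment length of 164 bp and 1 tag kept per position, leaving 20365794 ChIP tags and 22520884 input tags. The deposited pileup is a coverage signal of ChIP tags. In the deposited fold, pileup plus 1 is divided by background plus 1, and the background was recovered from this ratio (tolerance 0.002 tags). The deposited −log10 p-values and −log10 q-values were used as given, although per the file headers q was not to be calculated. These are the authors' values.

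Genes were RefSeq records on GRCm38.p6 other than pseudogenes, and records of extra scaffolds, 8 of them under chromosome 15, were left out, which shortens the span and raises the density. Strand was at hand for 54.5% of the coding genes, so gene ends took the place of starts. Bins of 5 Mb and 1 Mb began at position 0. The segmentation minimised the Poisson deviance with a penalty of 3 times the log number of bins and at least 3 bins a segment. It was tested on simulated data. Both edges of a sparse stretch were found in 93 of 100 simulations of 100 bins, against 46 on the log-likelihood scale tried first. The simulated stretch was placed like that from 15 to 25 Mb here but had a larger contrast to its flanks. The 93 therefore does not carry over to chromosome 15, which was divided only once. Intervals at 95% are exact, Clopper-Pearson for shares and Poisson for densities. SciPy 1.17.1 and pandas 2.3.3 were used. Named were the 10 peaks of highest fold, the 10 at coding gene ends, the 10 genes with most peaks (ties to the shorter), flanks of the 3 longest gaps, 4 members at most of each list and a set of 12 genes. Members and lists were chosen with earlier results of these data known, and the lists do not hold every such gene of the chromosome.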

Additional observations from a re-analysis of the deposited data

How the results depend on the processing

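The number of peaks depends on the threshold. The density of 6.57 per Mb fell to 3.34 at a q of at most 0.05, 0.982 at 0.01 and 0.149 at 0.001, and to 0.228 at 5-fold or more; no rows shared a start and end. The chromosome was divided once under every penalty, length and q limit run. The highest full 5 Mb bin held 3.50 times the lowest, but 11.0 times at a q of at most 0.01, where bins hold few peaks. The share at gene ends was 3.47% within 500 bp, 16.6% within 3000 bp, 4.04% with q up to 0.01 and 4.35% from 5-fold upwards. The share inside genes was 41.6% for coding records, 52.5% with q up to 0.01 and 34.8% from 5-fold upwards (23 peaks). At a q of at most 0.05 the median fold was 4.14, the pileup 11 tags, the width 187 bp and the spacing 191.0 kb, and 25 list genes had a peak in place of 38. Among peaks at the genome-wide background the median pileup was 9 tags and the background 1.79 tags, by construction. The correlation of peaks with coding genes, 0.341 over 5 Mb bins, was 0.289 over 1 Mb bins, 0.344 over 2 Mb bins, 0.452 with all records and 0.575 at a q of at most 0.05. No paired analysis was possible because there was 1 library of each kind.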
